A study of Rattus norvegicus with 6 samples.

Results

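Hepatic expression of 10 genes that make, lengthen and desaturate fatty acids was examined in rats that had received faecal microbiota transplantation (FMT). The genes were chosen by name, as Acly, Acaca, Acacb, Fasn, Me1, Thrsp, Elovl5, Elovl6, Fads1 and Fads2, and matched 11 of the 30957 rows of the deposited expression table, because Elovl6 is listed under 2 Ensembl identifiers. RNA was sequenced from the livers of 6 female Sprague Dawley rats, bought at an age of 3 weeks. All recipients were first made pseudo germ-free with courses of an antibiotic cocktail. They were then gavaged daily for 14 days with pooled faecal microbiota from donors injected with phosphate buffered saline (t-PBS, 3 livers sequenced of 6 rats) or with the androgen precursor dehydroepiandrosterone (t-DHEA, 3 livers sequenced of 6 rats). The recipients themselves were not injected, and recipients of a group shared a pool of donor faeces. The labels name the livers as separate replicates of each group, and the rats are numbered here by those replicate labels. Neither the hour nor the feeding state at which livers were taken is given in the sources used here.

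The livers yielded between 12348511 and 14316886 counts on genes, and the depths of the groups overlapped. The hepatocyte genes Alb, Apoa1, Ttr, Serpina1, Tf, Cps1, Tat and Apob together held 169100 to 197600 CPM (counts scaled to a common library size) in each liver. Of 7 mesothelial genes, which mark the cells covering the liver, 6 were tested and all 6 had every t-DHEA liver below every t-PBS liver, with summed levels of 29.0 to 36.5 CPM in t-PBS and 2.99 to 15.7 CPM in t-DHEA livers. By the test described below, 5 mesothelial genes were called lower, led by Upk3b, Muc16 and Msln with log2 fold changes of -2.56, -2.59 and -1.87. That test called 1.97% of all genes higher and 2.98% lower in t-DHEA livers. Of 5 red blood cell genes Hba1, Hbb-b1 and Hbb were called higher in t-DHEA livers (log2 fold changes 0.81, 1.02 and 0.70). Alas2 and Slc4a1 were at 0.38 and -0.11 and were not called. Of the hepatocyte genes Tat was called higher (0.68), and of the adipocyte genes Lpl was called lower (-1.56). Cidec was at 0.18, with every t-DHEA liver above every t-PBS liver, while the groups did not overlap for 10.1% of all genes. Cfd was at 0.04 and Fabp4 at -0.73, and none of these adipocyte genes was called. Of 6 Kupffer cell genes 0 were called by edgeR, with 0 at an unadjusted p below 0.05. Hbb was not called with DESeq2, with limma on FPKM or when rat 2 or 3 of t-PBS or rat 2 of t-DHEA was left out, and its value was 0.29 in the last of these fits. The summed level of 5 red blood cell genes was 185 to 284 CPM in t-PBS and 304 to 589 CPM in t-DHEA livers, most of it from Hba1 and Hbb. Adipocytes also express the lipogenic enzymes at a high level, and the adipocyte genes Adipoq, Plin1, Lep and Retn had no count in any liver. The 8 adipocyte genes summed to 76.5 to 87.5 CPM in t-PBS and 74.2 to 79.0 CPM in t-DHEA livers, almost all of it from Cidec, Cfd and Lpl, which are not restricted to adipocytes. The part that these cells or lower RNA per cell had in the results below was not tested, and fewer cells of a type and less RNA per cell cannot be told apart in whole tissue.

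Fatty acid synthesis starts from citrate exported by mitochondria. ATP citrate lyase cleaves it to acetyl-CoA, acetyl-CoA carboxylase turns acetyl-CoA into malonyl-CoA, and fatty acid synthase condenses these units into palmitate with NADPH that malic enzyme and the pentose phosphate pathway supply. Elongases add carbon units and desaturases add double bonds, either to new palmitate or to the essential fatty acids of the diet. In liver the pathway is induced by feeding, through insulin and the transcription factor SREBP-1c (from Srebf1) and through glucose and ChREBP (from Mlxipl).

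Promoters of 4 of the genes are shown: Me1 and Acly, with the most negative log2 fold changes, Thrsp, with the most positive, and Elovl5, with the smallest spread between livers. Any relation between their letters and the levels given below was not tested. The promoters shown are the 250 bases before the annotated start in the RefSeq annotation of GRCr8, 5′ to 3′ on the strand of the gene, at chr10:85963632-85963881 (minus strand) for Acly, chr8:96540245-96540494 (minus strand) for Me1, chr1:161138965-161139214 (minus strand) for Thrsp and chr8:87670914-87671163 (plus strand) for Elovl5. Capitals mark each match, on either strand, to the NF-Y box CCAAT, the Sp1 box GGGCGG or the E-box CACGTG, and no matches overlapped.

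Acly: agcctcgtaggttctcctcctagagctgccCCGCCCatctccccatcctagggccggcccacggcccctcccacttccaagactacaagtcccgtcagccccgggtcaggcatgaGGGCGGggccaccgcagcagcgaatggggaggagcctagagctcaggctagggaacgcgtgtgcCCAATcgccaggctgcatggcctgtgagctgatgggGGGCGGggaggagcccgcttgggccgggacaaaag
Me1: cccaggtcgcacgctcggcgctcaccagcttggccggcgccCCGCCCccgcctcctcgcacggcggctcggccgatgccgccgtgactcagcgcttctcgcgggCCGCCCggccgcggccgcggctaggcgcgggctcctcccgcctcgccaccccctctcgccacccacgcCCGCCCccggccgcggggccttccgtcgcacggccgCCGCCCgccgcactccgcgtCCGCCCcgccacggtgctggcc
Thrsp: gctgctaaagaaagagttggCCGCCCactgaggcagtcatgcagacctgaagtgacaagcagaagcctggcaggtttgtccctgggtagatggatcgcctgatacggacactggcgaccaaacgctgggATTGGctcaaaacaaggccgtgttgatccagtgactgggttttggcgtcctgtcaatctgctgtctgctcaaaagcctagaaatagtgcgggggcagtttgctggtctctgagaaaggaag
Elovl5: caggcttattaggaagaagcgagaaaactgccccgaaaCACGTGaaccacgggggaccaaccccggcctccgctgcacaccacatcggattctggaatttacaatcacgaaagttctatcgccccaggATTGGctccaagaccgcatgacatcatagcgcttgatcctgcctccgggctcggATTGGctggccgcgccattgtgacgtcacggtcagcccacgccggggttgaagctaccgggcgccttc

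Promoters of 7 of the 10 genes matched the RefSeq table, from 250 bases before to 50 bases after the start. A match to TCACNCCAC, a form of the sterol regulatory element that SREBP binds, was in 0 of the 7 and in 1.12% of the 33469 promoters of the table, so that these letters were not in the windows searched. CCAAT was in 5 of the 7 (Thrsp, Fads1, Elovl5, Acly and Acacb) and in 37.5% of all promoters, and GGGCGG in 5 of the 7 (Thrsp, Fads1, Fads2, Me1 and Acly) and in 33.1% of all. Me1 held 5 matches to GGGCGG, all on the opposite strand. The E-box was in 1 of the 7, Elovl5, at 212 bases before the start, and in 6.42% of all promoters. A match is a description of the letters and not of binding. The genes not matched were Acaca, Fasn and Elovl6.

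None of the 11 rows met the criteria of the study for a differentially expressed gene, an unadjusted p below 0.05 with a fold-change above 1.2, when t-DHEA and t-PBS livers were compared by the quasi-likelihood test of edgeR. By the same test 4.95% of the 12210 genes tested met them (604 genes, with 1.97% higher and 2.98% lower in t-DHEA livers). All 11 rows passed the filter for low counts, and 0 of the 11 had an unadjusted p below 0.05, which 5.19% of all genes (634) had. With DESeq2 the only row to meet the criteria was Thrsp, beside 1.43% of all genes called higher. With edgeR's likelihood-ratio test it was Acly, beside 3.09% of all genes called lower. With limma on log2(FPKM + 0.1) or log2(FPKM + 1) none of the rows did, beside 5.02% and 4.4% of all genes. The groups overlapped for all 11 rows, whereas they did not overlap for 10.1% of all genes tested. The log2 fold change was below 0 for 9 rows and above 0 for Thrsp and Acacb, and its median over the 11 rows was -0.20, beside 0.0013 over all genes tested. After Benjamini-Hochberg adjustment over all 12210 genes, the lowest p of the rows was 0.97, and 0 genes of any kind were below 0.05 with the quasi-likelihood test of edgeR, against 24 with DESeq2 and 28 with edgeR's likelihood-ratio test.

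**Figure D1:**
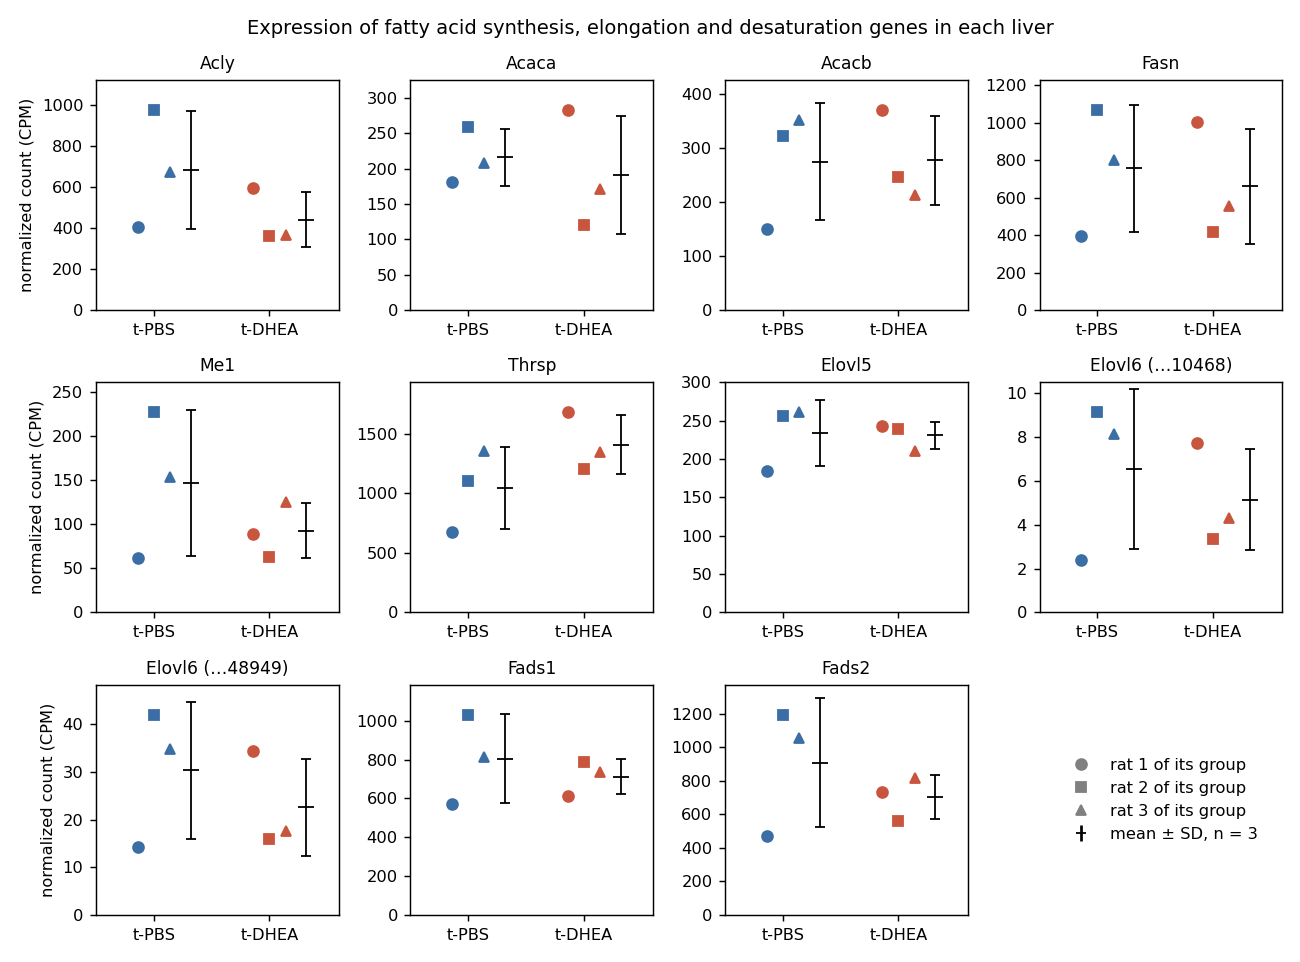
Normalized count (CPM, linear axes from 0) of each of the 11 rows in each liver, t-PBS in blue and t-DHEA in red, with the group mean and SD of 3 livers beside the points. The groups overlap in every panel, and rat 1 (circle) is the lowest t-PBS liver in all 11.

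The levels of these genes varied widely between rats of the same group. The pooled SD of log2 CPM within groups had a median of 0.55 over the 11 rows and 0.19 over all genes tested, and all 11 rows lay above the latter. Among the 7150 genes with a mean of at least 10 CPM the median SD was 0.14, and 2.14% of them had an SD as high as the median row. Together the 11 rows took from 0.309% of all counts in t-PBS rat 1 to 0.676% in t-PBS rat 2. The level in t-PBS rat 1 was the lowest of its group in 11 of 11 rows and the lowest of all 6 livers in 9. The level in t-PBS rat 2 was the highest of all 6 livers in 7 rows. Among t-DHEA livers, rat 1 was the highest in 8 of the 11 rows and rat 2 the lowest in 8.

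Acly encodes ATP citrate lyase and lies at chr10:88392248-88442845 of Rnor_6.0, the build of all gene positions given here. Its level was 402, 975 and 672 CPM in t-PBS rats, given in the order of rats 1 to 3 here and below, and 595, 361 and 364 CPM in the t-DHEA livers. Rats 2 and 3 of t-DHEA were below every t-PBS liver, and t-DHEA rat 1 was above t-PBS rat 1. The estimate for t-DHEA against t-PBS was a log2 fold change of -0.63 (standard error, SE, 0.31) with a 95% interval from -1.34 to 0.07 (unadjusted p = 0.0715, the quasi-likelihood test of edgeR). This was the lowest p of the 10 genes. Leaving out t-PBS rat 1 gave -0.90 and leaving out t-DHEA rat 1 gave -0.91, while it was -0.28 without t-PBS rat 2.

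Acetyl-CoA carboxylase exists as a cytosolic form that feeds fatty acid synthesis, encoded by Acaca (chr10:71536533-71719910), and a form at the mitochondrial membrane whose malonyl-CoA restrains fatty acid oxidation, encoded by Acacb (chr12:48127149-48238887). Acaca was at 181, 260 and 208 CPM in the t-PBS livers and at 284, 120 and 171 CPM in t-DHEA livers, so that the t-DHEA group held both the highest and the lowest liver. Its log2 fold change was -0.17 with an SE of 0.28 and an interval from -0.80 to 0.46. Acacb was at 150, 322 and 352 CPM in t-PBS and at 371, 247 and 214 CPM in t-DHEA livers, with a log2 fold change of 0.01 and an interval from -0.69 to 0.72. The sign for Acacb turned with either rat 1: its log2 fold change was -0.28 when t-PBS rat 1 was left out and -0.25 when t-DHEA rat 1 was. Within each liver, the log2 ratio of Acaca to Acacb counts was -0.27 ± 0.52 (SD, n = 3) in t-PBS and -0.58 ± 0.40 (SD, n = 3) in t-DHEA livers (exact permutation test, two-sided, p = 0.4).

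Fasn (chr10:109987735-110005901), the multifunctional synthase that makes palmitate, was at 394, 1070 and 804 CPM in t-PBS and at 1006, 419 and 556 CPM in t-DHEA livers. The level in t-DHEA rat 1 was near that of t-PBS rat 2, and the level in t-DHEA rat 2 near that of t-PBS rat 1. The log2 fold change was -0.20 with an SE of 0.39 and an interval from -1.07 to 0.68, so that the data allow from a fold of 0.475 to one of 1.61 in t-DHEA livers. The sign turned without either of the rats numbered 2, to 0.14 when t-PBS rat 2 was left out and to 0.05 for t-DHEA rat 2. Acly and Fasn act at successive steps, and the log2 ratio of Acly to Fasn counts was -0.12 ± 0.14 (SD, n = 3) in t-PBS and -0.53 ± 0.28 (SD, n = 3) in t-DHEA livers. This was the largest difference of the 4 within-liver ratios compared, at -0.41 on the log2 scale, and it did not pass the test (exact permutation test, two-sided, p = 0.2, adjusted p = 0.6 over 4 ratios, where 0.1 is the smallest unadjusted p that 3 against 3 can give). The ratio was lower in t-DHEA rats 1 and 3 than in every t-PBS liver, and t-DHEA rat 2 lay among the t-PBS livers.

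Me1 (chr8:94256839-94368834) encodes the cytosolic malic enzyme, which regenerates NADPH from malate. It was at 61.6, 227 and 153 CPM in t-PBS and at 89.3, 63.2 and 125 CPM in t-DHEA livers, a range of 3.69-fold over the 6 livers. Every t-DHEA liver was below t-PBS rats 2 and 3 and above t-PBS rat 1. Its log2 fold change of -0.67 had the largest size of the 11 rows, with an SE of 0.41 and an interval from -1.61 to 0.27 (unadjusted p = 0.14, the quasi-likelihood test of edgeR). Leaving out t-PBS rat 1 gave -1.04, and leaving out t-PBS rat 2 gave -0.21.

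Thrsp (chr1:162381253-162385575), also called Spot 14, encodes a small nuclear and cytosolic protein that responds to thyroid hormone and carbohydrate and promotes lipogenesis. It was at 673, 1108 and 1353 CPM in t-PBS and at 1683, 1202 and 1348 CPM in t-DHEA livers. Its log2 fold change was the highest of the 11 rows, at 0.43 with an SE of 0.24 and an interval from -0.11 to 0.98 (unadjusted p = 0.105, the quasi-likelihood test of edgeR). Of the t-DHEA livers, rat 1 exceeded every t-PBS liver, and rats 2 and 3 lay between t-PBS rats 2 and 3. The log2 fold change was 0.20 without t-PBS rat 1. It was 0.66 in the fit lacking t-PBS rat 3, where Thrsp met the criteria (unadjusted p = 0.0248, adjusted p = 0.86, the quasi-likelihood test of edgeR) beside 2.52% of genes called higher in that fit. With DESeq2 on all 6 livers the value was 0.44 with an unadjusted p of 0.0389.

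Of the elongases, Elovl5 (chr8:85259982-85285983) lengthens polyunsaturated chains, and Elovl6 lengthens palmitate to stearate. Elovl5 varied least of the 10 genes, from 185 CPM in t-PBS rat 1 to 261 CPM in t-PBS rat 3, with 243, 239 and 211 CPM in the t-DHEA livers and 256 CPM in t-PBS rat 2. Its log2 fold change was -0.02 with an SE of 0.14, and the interval from -0.34 to 0.31 was the narrowest of the 11 rows. The Elovl6 rows, ENSRNOG00000010468 at chr2:234189105-234296145 and ENSRNOG00000048949 at chr2:234375315-234483149, each span 107 to 108 kb and lie 79.2 kb apart, while the RefSeq gene table of the later assembly GRCr8 holds 1 Elovl6 gene of 107 kb. Reads could therefore have been split between the rows, and their levels are uncertain. The first row had 34, 124 and 108 counts in t-PBS and 94, 45 and 56 counts in t-DHEA livers, and the second had 204, 570 and 461 counts in t-PBS and 416, 214 and 227 counts in t-DHEA livers. The order of the 6 livers was the same in both rows, from t-PBS rat 1 as the lowest to t-PBS rat 2 as the highest. Their log2 fold changes were -0.35 (SE 0.47) and -0.43 (SE 0.40), and the value was -0.41 with the counts of the rows summed. The log2 ratio of Elovl5 to summed Elovl6 counts was 2.80 ± 0.60 (SD, n = 3) in t-PBS and 3.14 ± 0.56 (SD, n = 3) in t-DHEA livers (exact permutation test, two-sided, p = 0.5).

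Fads1 (chr1:226234074-226249138) and Fads2 (chr1:226114413-226152524) encode the delta-5 and delta-6 desaturases of polyunsaturated fatty acid synthesis, and lie 81.5 kb apart. Fads2 was at 469, 1193 and 1057 CPM in t-PBS and at 730, 560 and 817 CPM in t-DHEA livers, and as for Me1 every t-DHEA liver was below t-PBS rats 2 and 3 and above t-PBS rat 1. Its log2 fold change was -0.37 with an SE of 0.31 and an interval from -1.06 to 0.32. Fads1 was at 572, 1031 and 812 CPM in t-PBS and at 614, 789 and 733 CPM in t-DHEA livers, and its log2 fold change was -0.18 with an SE of 0.20 and an interval from -0.63 to 0.28. In t-DHEA rat 2 Fads2 was at its lowest of that group and Fads1 at its highest. The log2 ratio of Fads1 to Fads2 counts was -0.10 ± 0.35 (SD, n = 3) in t-PBS and 0.03 ± 0.41 (SD, n = 3) in t-DHEA livers (exact permutation test, two-sided, p = 0.6), and the sign of the difference turned when t-PBS rat 3 or t-DHEA rat 2 was left out.

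**Figure D2:**
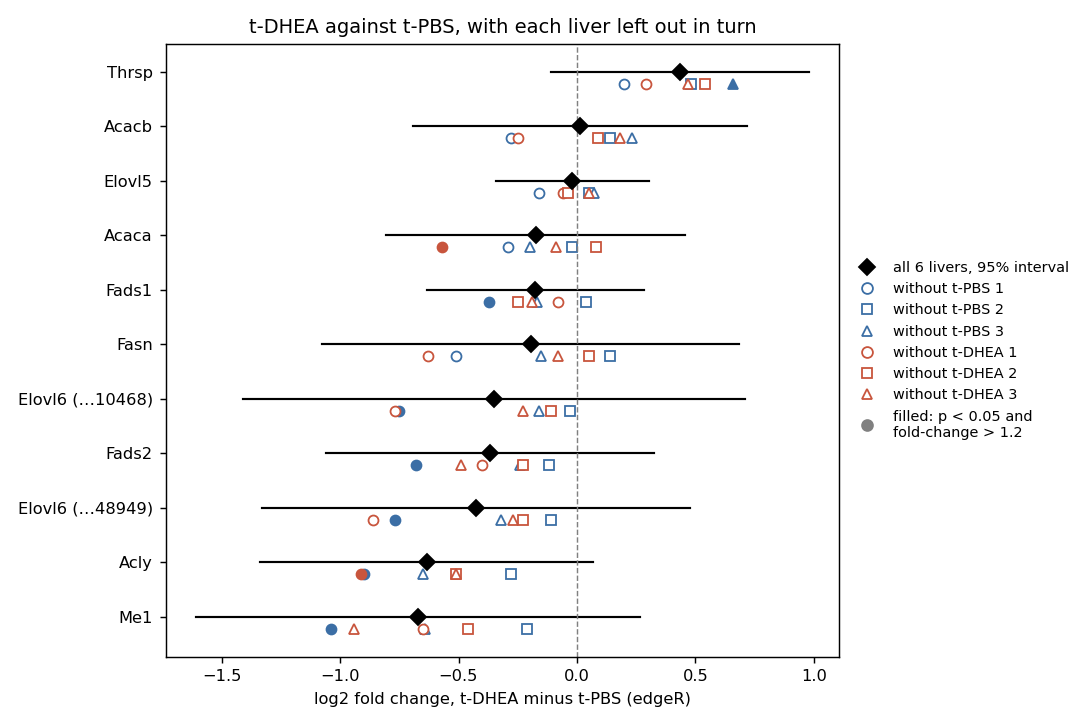
Log2 fold change of each row in t-DHEA against t-PBS livers (black diamonds, lines are 95% intervals, 6 livers), with the values after leaving out each liver in turn below it. Every interval spans 0, and the filled circles at the left, for fits lacking rat 1 of either group, mark most of the rows that met the criteria after a liver was left out.

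The number of genes called lower depended on single livers. Without t-PBS rat 1, 6 of the 11 rows met the criteria as lower in t-DHEA livers, beside 2.69% of all 12381 genes tested in that fit. These were Me1 with a log2 fold change of -1.04, Acly with -0.90, the Elovl6 rows with -0.77 and -0.75, Fads2 with -0.68 and Fads1 with -0.37. Their unadjusted p-values ran from 0.00429 for Fads2 to 0.0478 for an Elovl6 row, and none had an adjusted p below 0.996 (the quasi-likelihood test of edgeR). Because t-PBS rat 1 was the lowest of its group in all 11 rows, leaving it out raised the t-PBS mean of every row. Most rows also shared an order of livers, so these calls are not independent of each other. Without t-DHEA rat 1, Acly and Acaca met the criteria, at -0.91 and -0.57, beside 3.49% of genes called lower in that fit. No row met them without t-PBS rat 2, t-DHEA rat 2 or t-DHEA rat 3, where 4.15%, 4.84% and 5.02% of all genes did. Over the 11 rows, the lowest median log2 fold change was -0.57, in the fit lacking t-DHEA rat 1, and the highest -0.02, in that lacking t-PBS rat 2.

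Per gene length, in FPKM as deposited, the 10 genes covered a wide range of levels. Thrsp was the highest, with 544 to 1340 FPKM over the 6 livers, followed by Fads2 with 344 to 914 FPKM, and Thrsp exceeded Fads2 in 6 of 6 livers. Fads1 (167 to 314 FPKM) and Elovl5 (167 to 241 FPKM) came next, and their order held in 5 of 6 livers. Acly (64.7 to 184 FPKM) exceeded Fasn (43.0 to 122 FPKM) in 5 of 6 livers. Me1 (18.2 to 70.1 FPKM), Acaca (16.5 to 38.7 FPKM) and Acacb (12.9 to 31.4 FPKM) overlapped, Me1 being above Acaca in 4 of 6 livers and Acaca above Acacb in 4 of 6. The Elovl6 rows were lowest, with 5.70 to 17.5 FPKM and 2.14 to 8.56 FPKM. The only neighbours in this order whose ranges over the 6 livers did not overlap were Fads2 and Fads1. Their FPKM rest on lengths of 1359 bases for Fads2 and 3416 bases for Fads1. Their counts were similar, with a mean log2 ratio of Fads1 to Fads2 of -0.10 in t-PBS and 0.03 in t-DHEA livers.

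**Figure D3:**
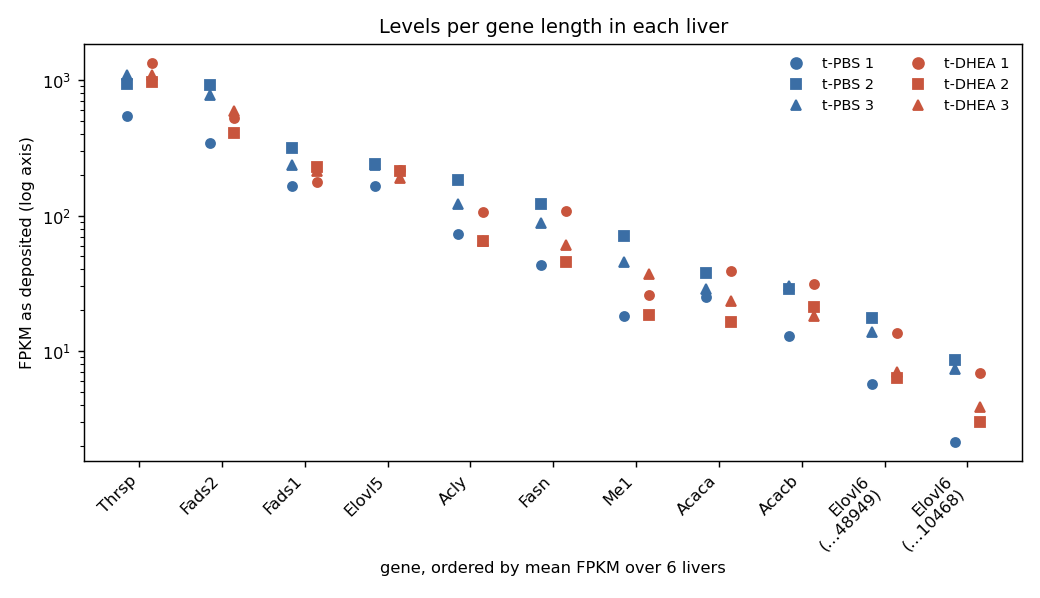
Deposited FPKM (log axis) of each row in each liver, ordered by the mean over 6 livers, with t-PBS livers in blue and t-DHEA livers in red. Thrsp and Fads2 lie highest and the Elovl6 rows lowest, and the ranges of most neighbours overlap.

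Most of the genes had a similar order of livers. The mean deviation of the 11 rows from each row's own mean log2 CPM was -0.63, 0.56 and 0.34 for t-PBS rats and 0.26, -0.39 and -0.15 for t-DHEA rats. As a description over these 6 livers, which share this common deviation, the Pearson r of a row with the mean of the other 10 was 0.99 and 0.97 for the Elovl6 rows, 0.96 for Fasn, 0.91 for Fads2, 0.87 for Acly, 0.86 for Acacb, 0.82 for Elovl5, 0.81 for Me1 and 0.70 for Acaca. It was lowest for Fads1, at 0.59, and Thrsp, at 0.54. Over the 5 livers other than t-PBS rat 1, r was 0.94 for Fasn and 0.95 for Acly, but 0.32 for Fads1 and -0.03 for Thrsp, so that the r of Thrsp rested on its low level in t-PBS rat 1.

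Of 6748 other genes with a symbol and a mean of at least 10 CPM, those whose log2 CPM followed this common deviation most closely were G6pdx, Tkt, Sdpr, Pnpla3 and Cdh5, with r of 0.98, 0.98, 0.97, 0.97 and 0.97 over the 6 livers. G6pdx encodes glucose-6-phosphate dehydrogenase and Tkt transketolase, both of the pentose phosphate pathway, and Pnpla3 encodes a lipid droplet protein whose transcription follows that of lipogenic genes. Pnpla3 had the widest swing, with 74.4, 745 and 468 CPM in t-PBS and 401, 60.5 and 170 CPM in t-DHEA livers, a 12.3-fold range. G6pdx was at 33.7, 115 and 94.7 CPM in t-PBS and at 77.4, 35.8 and 59.5 CPM in t-DHEA livers. For both genes t-PBS rat 1 and t-DHEA rat 2 were the lowest livers and t-PBS rat 2 the highest, and the log2 fold changes of -1.03 for Pnpla3 and -0.50 for G6pdx did not pass the test (unadjusted p = 0.226 and 0.262, the quasi-likelihood test of edgeR). Sdpr and Cdh5 belong to caveolae and endothelial junctions and ranged by 1.51-fold and 1.37-fold. Among the genes most opposed were Fbxw2 and Mro, with r of -0.99 and -0.98, and their levels ranged by 1.10-fold and 1.67-fold only. These genes are the extremes of 6748 values of r, each over 6 livers, and are given without a p.

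**Figure D4:**
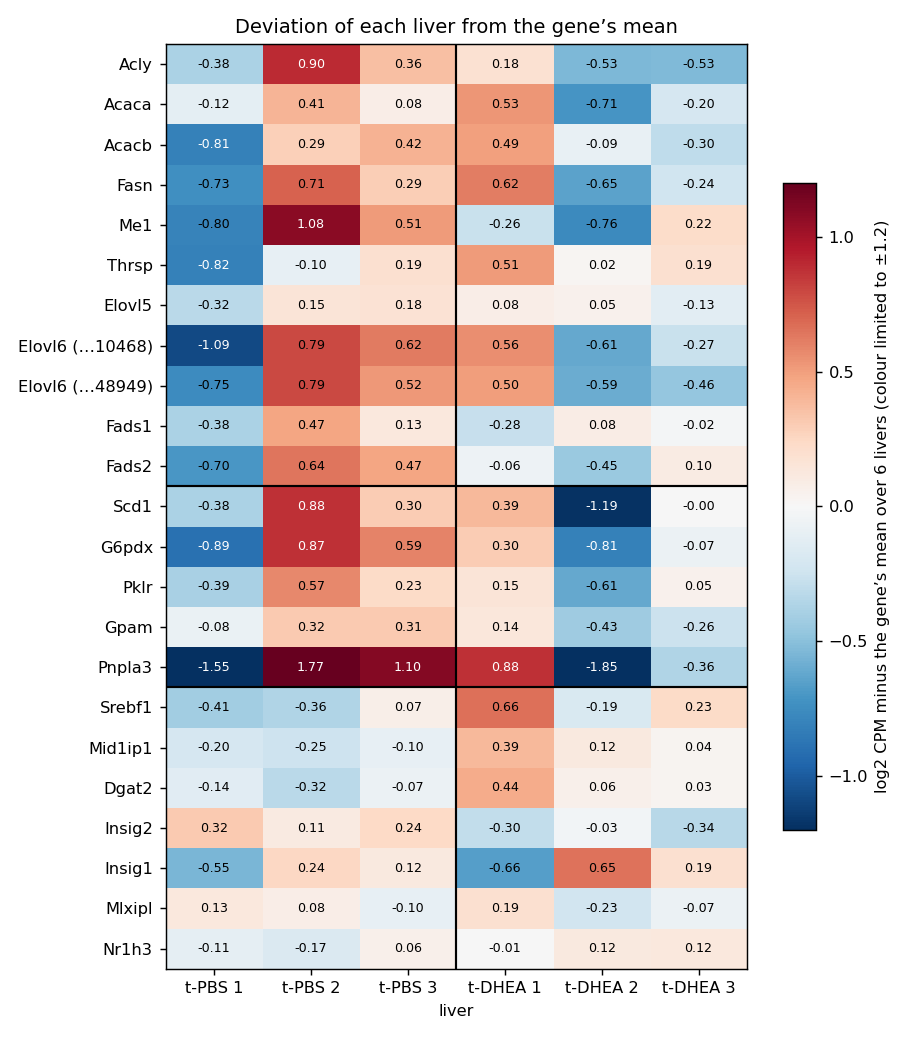
Deviation of log2 CPM in each liver from the gene's mean over 6 livers, for the 11 rows (top), for Scd1, G6pdx, Pklr, Gpam and Pnpla3 (middle) and for regulators and Dgat2 (bottom), as colour and printed value. All rows of the top and middle blocks are below their mean in t-PBS rat 1, those other than Thrsp are above it in t-PBS rat 2, and those other than Thrsp, Elovl5 and Fads1 are below it in t-DHEA rat 2, while Srebf1, Mid1ip1, Dgat2 and Insig2 have another order of livers.

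Of 16 rows in a list of other elongases, desaturases and enzymes of the elongation cycle, 11 passed the filter, and 0 of the 11 met the criteria in the quasi-likelihood test of edgeR, in DESeq2 or in edgeR's likelihood-ratio test. The median log2 fold change was -0.06. Scd1, the stearoyl-CoA desaturase that makes oleate, took from 0.285% of all counts in t-DHEA rat 2 to 1.26% in t-PBS rat 2. It was at 5050, 12090 and 8098 CPM in t-PBS and at 8586, 2883 and 6565 CPM in t-DHEA livers, with a log2 fold change of -0.48 (SE 0.41). Elovl1, an elongase of saturated very long chains, had every t-DHEA liver (33.8 to 39.3 CPM) below every t-PBS liver (40.7 to 44.6 CPM). Its log2 fold change was -0.23, under the fold-change criterion (unadjusted p = 0.047, the quasi-likelihood test of edgeR). Elovl1 met the criteria with limma on log2(FPKM + 0.1), beside 5.02% of all genes, but not with limma on log2(FPKM + 1). With DESeq2 and edgeR's likelihood-ratio test 0 genes of this list had an unadjusted p below 0.05. Elovl1 was named after its values were seen. Elovl3, Elovl4, Elovl7, Scd4 and Hacd4 were below the filter.

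Of 15 rows for the supply of acetyl-CoA, malonyl-CoA and NADPH and for mitochondrial fatty acid synthesis, 14 were tested, 1 was called higher and 0 lower in t-DHEA livers. Over all genes tested, 1.97% were called higher and 2.98% lower. The median log2 fold change of the list was 0.02. The gene called was Mid1ip1, whose protein is related to that of Thrsp and promotes the polymerization of acetyl-CoA carboxylase. It was at 55.3, 53.4 and 59.3 CPM in t-PBS and at 83.3, 69.0 and 65.1 CPM in t-DHEA livers, so that every t-DHEA liver was above every t-PBS liver. It rose by 0.37 on the log2 scale (SE 0.11, unadjusted p = 0.0095, adjusted p = 0.838, the quasi-likelihood test of edgeR), and was called in DESeq2 and edgeR's likelihood-ratio test as well. Without t-DHEA rat 1 the value was 0.26, under the fold-change criterion.

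Among 26 genes for transcriptional and kinase regulators, all of them tested, 1 was called higher and 2 lower, beside 1.97% and 2.98% of all genes. Their median log2 fold change was 0.0031. Srebf1 was at 232, 241 and 324 CPM in t-PBS and at 491, 272 and 362 CPM in t-DHEA livers. It rose by 0.50 on the log2 scale (SE 0.21, unadjusted p = 0.0467, adjusted p = 0.957, the quasi-likelihood test of edgeR), with groups that overlapped through t-DHEA rat 2. Srebf1 was called in 2 of the 6 fits that left out a liver (those lacking t-PBS rat 3 or t-DHEA rat 2), and its value was 0.25 without t-DHEA rat 1. It was not called with limma on log2(FPKM + 0.1) or log2(FPKM + 1), at 0.43 in both. Insig2, whose protein holds SREBP precursors in the endoplasmic reticulum, was at 154, 133 and 146 CPM in t-PBS and at 101, 121 and 97.9 CPM in t-DHEA livers, without overlap. It fell by 0.44 (SE 0.11, unadjusted p = 0.00366, adjusted p = 0.801, the quasi-likelihood test of edgeR) and stayed called when any single liver was left out. Prkaa1, the catalytic alpha-1 subunit of AMPK, which phosphorylates and inhibits acetyl-CoA carboxylase, was at 25.9, 23.3 and 23.9 CPM in t-PBS and at 21.9, 17.7 and 20.6 CPM in t-DHEA livers, without overlap. It fell by 0.28 (SE 0.11, unadjusted p = 0.0354, adjusted p = 0.957, the quasi-likelihood test of edgeR), and was no longer called with DESeq2, with edgeR's likelihood-ratio test or when rat 1 or 3 of t-PBS or rat 2 or 3 of t-DHEA was left out. Insig1, at 157 to 390 CPM, Mlxipl, at 271 to 364 CPM, and Nr1h3, the oxysterol receptor LXR-alpha, at 98.6 to 121 CPM, had log2 fold changes of 0.18, -0.06 and 0.15, and all 3 had overlapping groups. The livers did not stand in the same order for Srebf1 as for the 10 genes: t-PBS rat 2, highest in 7 rows, had the second lowest Srebf1 level.

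Of 16 rows for genes that follow feeding and insulin, 1 was called higher and 0 lower, beside 1.97% and 2.98% of all genes. Their median log2 fold change was -0.23. In DESeq2 1 was called higher and 2 lower (Gpam and Pdk4), beside 1.43% of all genes called higher and 240 of 12210 called lower. With limma on log2(FPKM + 0.1) and on log2(FPKM + 1) 1 was called higher and 2 lower (Gpam and Cpt1a). These fits called 5.02% and 4.4% of all genes in either direction. Dgat2, which completes triglyceride synthesis, was at 881, 777 and 922 CPM in t-PBS and at 1320, 1011 and 990 CPM in t-DHEA livers and rose by 0.36 (SE 0.14, unadjusted p = 0.0296, adjusted p = 0.957, the quasi-likelihood test of edgeR). It was no longer called when rat 1 or 2 of t-PBS or rat 1 of t-DHEA was left out, and was 0.22 on the log2 scale in the last of these fits. Pklr, the liver pyruvate kinase, was at 457, 892 and 702 CPM in t-PBS and at 666, 392 and 621 CPM in t-DHEA livers, in an order close to that of Fasn. Igfbp1 and Pck1, which fall after feeding, were at 62.6, 68.2 and 291 CPM and at 1089, 1119 and 1471 CPM in the t-PBS livers. The t-DHEA livers held 51.9, 250 and 131 CPM of Igfbp1 and 672, 1444 and 2334 CPM of Pck1. Cpt1a and Fgf21, which rise on fasting, were at 243, 229 and 216 CPM and at 6.94, 4.94 and 5.89 CPM in t-PBS livers. The t-DHEA livers held 168, 224 and 186 CPM of Cpt1a and 3.22, 6.51 and 3.79 CPM of Fgf21. t-DHEA rat 1 had the lowest level of all 4 genes, while t-PBS rat 1, which was low for the 10 lipogenic genes, had the highest level of Cpt1a and Fgf21 but not of Igfbp1 or Pck1. These 4 genes were named after their values were seen, and the part of feeding in the levels of the 10 genes was not tested.

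Several lipogenic genes are rhythmic in liver. Of 13 clock and clock output genes, 4 were called higher (Per3, Per2, Tef and Dbp, with log2 fold changes of 1.09, 0.84, 0.67 and 1.16) and 1 lower (Arntl, -0.87) in t-DHEA livers, with adjusted p-values from 0.796 for Per3 and Arntl to 0.909 for Dbp (the quasi-likelihood test of edgeR), and 8 were not called. Of all genes tested, 1.97% were called higher and 2.98% lower. Dbp was no longer called when rat 1 or 2 of t-PBS or rat 1 or 3 of t-DHEA was left out. With DESeq2 and with edgeR's likelihood-ratio test Clock was called lower too, giving 4 higher and 2 lower in each. Over all genes DESeq2 called 174 higher and 240 lower, and the likelihood-ratio test 231 and 377. The adjusted p was 0.00842 and 0.0199 for Per3 and 0.0308 and 0.0582 for Arntl with these tests, in that order. It was above 0.05 in both for Per2, Tef and Dbp. Dbp was at 32.0, 29.1 and 62.4 CPM in t-PBS and at 112, 41.7 and 123 CPM in t-DHEA livers, so that t-DHEA rat 2 lay among the t-PBS livers, as for Srebf1. The part of the clock in the levels of the 10 genes was not tested.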

How the data were processed

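Liver RNA of 3 t-PBS and 3 t-DHEA rats was sequenced as paired-end TruSeq libraries. Per the study's methods and the submitters' processing notes, the authors filtered reads with Seqtk, mapped them to Rnor_6.0 with HISAT2 2.0.4 and counted fragments with StringTie 1.3.0. The authors deposited raw counts per gene, without normalization, and FPKM values, which equal counts over library total and over a fixed length per gene, to within a relative spread of 0.000969. Annotation release and strandedness are not given in the sources used here, so overlapping and antisense genes are uncertain. No value column was unmapped.

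Counts were tested with edgeR 4.0.16 (R 4.3.3): TMM factors, the default low-count filter and a two-sided quasi-likelihood test between the groups, with SE and 95% intervals from the test statistic and CPM from TMM-scaled libraries. Genes were called when the unadjusted p was below 0.05 and the fold-change exceeded 1.2, the study's criteria, and adjusted by Benjamini-Hochberg over all genes. The study ran edgeR on FPKM, to which no count model was fitted here. Each p-value of the edgeR test rests on the spread between 3 livers per group, with the dispersion of a gene drawn towards that of all genes. The intervals cover no other source of error, such as the donor pool that recipients of a group shared.

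The 10 genes and the lists were chosen with earlier results of these data known. Of 121 list entries besides them, Pgd matched no row, 2 matched through an older symbol, and Scd reached the row of Scd1. Besides the 10 genes, the text names Srebf1, Mlxipl, Nr1h3, Insig1, Insig2 and Scd1, the called genes of each list by lowest p (at most 5 in pathway and 3 in cell type lists), and the 5 genes most like and 3 least like the mean of the 10, of which 1 is not reported here. Others were named after their values were seen, or are given as undetected markers. Promoters came from RefSeq (GRCr8). As alternatives, DESeq2 1.42.0, the likelihood-ratio test of edgeR, other size factors, limma 3.58.1 on log2(FPKM + 0.1) and log2(FPKM + 1), other filters, a block for rat number, a fold-change above 1.5 and each liver left out, were used, and, chosen after seeing the data, the sum of the Elovl6 rows. The test was checked on simulated counts.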

Additional observations from a re-analysis of the deposited data

How the results depend on the processing

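With 3 livers per group, and rats that varied several-fold within a group, the intervals of the 10 genes allow changes in either direction, and single livers decide the calls. Of 614 values of named genes under alternatives, 555 kept their direction and their side of the criteria. Other size factors, both filters and limma on FPKM left all 11 rows uncalled. Called rows numbered 1 higher with DESeq2 and 1 lower with edgeR's likelihood-ratio test, and leaving out single livers gave 0 to 1 higher and 0 to 6 lower, with a median log2 fold change from -0.57 to -0.02.

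Over all genes, 240 were called lower with DESeq2, 147 higher with limma on log2(FPKM + 1), and 101 higher and 174 lower above a fold-change of 1.5. Over the 5 pathway lists, 7 rows were called higher and 3 lower, beside 1.97% and 2.98% of all genes. Those lower were 5 with DESeq2, 6 with limma on log2(FPKM + 0.1) and 5 with limma on log2(FPKM + 1). Above a fold-change of 1.5 they were 4 higher and 1 lower, and leaving out livers gave 4 to 10 higher and 2 to 9 lower.

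The sign turned for Fbxw2 with limma on log2(FPKM + 0.1) and log2(FPKM + 1), to -0.01 in each case. With a liver left out, log2 fold changes ran from -0.28 to 0.23 for Acacb, -0.57 to 0.08 for Acaca, -0.63 to 0.14 for Fasn, -0.16 to 0.07 for Elovl5 and -0.37 to 0.04 for Fads1. They ran from -0.15 to 0.46 for Insig1, -0.19 to 0.03 for Mlxipl, -0.21 to 0.09 for Sdpr and -0.03 to 0.36 for Mro. Differences in log2 ratios ran from -0.56 to -0.05 for Acaca/Acacb, 0.10 to 0.68 for Elovl5/Elovl6, -0.56 to -0.29 for Acly/Fasn and -0.10 to 0.33 for Fads1/Fads2. The causes were not tested.

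Rats with the same number did not deviate together (r of -0.057, -0.059 and -0.055 across genes for rats 1, 2 and 3), and no liver correlated best with its own number. The labels name no pairing, and values this near 0, from deviations centred within groups of 3, cannot show whether livers were paired. With rat number as a block, 0 of the 11 rows were called, the lowest adjusted p among them was 0.979, the list calls lower numbered 4, and Srebf1 was at 0.47 with an unadjusted p of 0.0568.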
